A study of Mus musculus with 8 samples.

Results

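Livers of Ercc1-deficient mice that also carried a Nemo allele were compared with livers of Ercc1-deficient mice without it. The libraries were chosen by their genotype label: 2 libraries labelled NEMO DK; Ercc1-/D (called NemoDK_Ercc1 here) against 2 labelled Ercc1 -/D (called Ercc1), 4 of the 8 libraries of the study, with 4 wild-type (WT) libraries alongside. All 4 mutant mice carried the Ercc1 -/D genotype, which pairs a null with a hypomorphic allele, so the groups differ in the Nemo allele, and the labels do not say what DK stands for. Every library came from total liver RNA of 1 mouse labelled female. The NemoDK_Ercc1 mice were both 11.8 weeks old, and the Ercc1 mice were 15.1 weeks (library 1) and 13.7 weeks (library 2). The WT mice were 10.7 to 12.3 weeks old. Each Ercc1 mouse was thus older than every other mouse, and age and the Nemo allele cannot be told apart in this comparison. The labels give no time of day or feeding state at collection.

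ERCC1 forms with XPF the endonuclease of nucleotide excision and interstrand crosslink repair, and mice with little of it age early, with marked changes in the liver. NEMO is the product of Ikbkg and the regulatory part of the IKK complex. When a cytokine receptor or DNA damage signals to it, IKK phosphorylates IkB proteins such as that of Nfkbia, and the RelA-p50 dimer moves to the nucleus and induces inflammatory genes together with its own inhibitors. The circadian clock of the liver also appears below, because its genes held many of the largest differences. In it CLOCK and BMAL1 (Arntl) drive Per, Cry, Nr1d and Dbp genes through E-boxes, PER and CRY proteins inhibit that drive, and NR1D proteins repress Arntl, Npas2, Clock and Nfil3 through ROR elements.

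Stretches upstream of 6 genes on which the results turn are printed with their matches to short motifs searched for these factors. They come from RefSeq promoter entries on GRCm38.p6, are written 5′ to 3′ along the gene, and end before the annotated start. Capitals mark the searched motif, and binding at these letters was not tested. The first pair, from the core clock loop, holds E-boxes (CACGTG): 3 before Ciart, a clock repressor (chr3:95882247-95882364, minus strand), and 1 before Per1 (chr11:69098763-69098808, plus strand). The next pair holds 2 D-boxes (TTANGTAA) before Per3 (chr4:151044796-151044890, minus strand) and 2 matches to a loose ROR core pattern (TNGGTCA) before Arntl (chr7:113207245-113207310, plus strand). This pattern takes any base after its first T. In Arntl that base is T or C, so the 2 matches do not establish a ROR element. The last pair holds an NF-kB motif (GGG, any 2 bases, TTTCC; here on the opposite strand) before Tnfaip3 (chr10:19015411-19015442, minus strand) and Nfkbia (chr12:55492648-55492696, minus strand), both inhibitors that NF-kB induces.
Ciart: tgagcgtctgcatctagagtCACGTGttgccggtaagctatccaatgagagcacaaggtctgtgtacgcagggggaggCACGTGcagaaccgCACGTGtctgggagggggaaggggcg
Per1: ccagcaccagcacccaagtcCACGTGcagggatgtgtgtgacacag
Per3: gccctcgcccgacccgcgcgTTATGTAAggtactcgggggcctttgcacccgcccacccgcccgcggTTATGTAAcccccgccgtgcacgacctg
Arntl: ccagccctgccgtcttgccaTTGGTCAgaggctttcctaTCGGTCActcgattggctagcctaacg
Tnfaip3: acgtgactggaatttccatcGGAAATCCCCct
Nfkbia: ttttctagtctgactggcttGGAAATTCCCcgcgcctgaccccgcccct
In the 250 bases before the start, searched on both strands, an E-box was found in 6 of 23 promoters (26.1%) of the 18 clock genes with an entry, against 6.02% of all 32851 promoters. The loose ROR core pattern was also matched in 6 of these 23 promoters, against 9.19% of all. An NF-kB motif stood in 9 of 41 promoters (22%) of the 37 NF-kB target genes with an entry, against 1.41% of all. The D-box was found in 1 of the 23 clock promoters, that of Per3, against 2.06% of all. Some genes have several entries, and none of the 4 motifs contains another. Windows of Tnfaip2, Bcl3, Dbp and Nr1d1 held none of the motif of their own list's factors that was searched for here, which says only that these letters are not in those windows.

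Libraries held 21.6 to 27.8 M counts, and 15598 of the 55487 listed genes had enough counts for a test. Levels are given as CPM, counts scaled to library depth with TMM factors, and differences as log2 NemoDK_Ercc1 minus Ercc1 with a standard error from edgeR's quasi-likelihood fit. WT library 3 held 0 Xist counts and 3087 counts of 4 Y-linked genes, which goes against its label as female, so results were also computed without it. The hepatocyte list was present in every library at a summed 109850 to 186650 CPM, as the tissue label says. Between the mutant groups its 19 tested markers had a median difference of -0.03. Of them 5 (26.3%) lay above and 6 (31.6%) below in both NemoDK_Ercc1 libraries, against 23.1% and 19.7% of all tested genes. Among the markers Hnf4a, a master factor of hepatocyte genes, stood at 506 and 465 CPM in Ercc1 and 436 and 393 in NemoDK_Ercc1. Cebpa stood at 258 and 298 against 360 and 334 CPM, and Foxa2 at 38.4 and 39.8 against 32.9 and 24.7 CPM.

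Transcripts of the targeted genes did not separate the 2 mutant groups in the test. Ercc1 itself was at 1.76 and 1.49 CPM in Ercc1 and 1.87 and 1.86 CPM in NemoDK_Ercc1, below the WT range of 2.57 to 5.04 CPM. Its difference was 0.20 ± 0.34 (adjusted p = 0.940), and it shares exonic bases with Cd3eap, a gene of the opposite strand. Ikbkg was at 93.3 and 84.0 CPM in Ercc1 and 81.9 and 71.9 CPM in NemoDK_Ercc1, against 56.8 to 68.4 CPM in WT. Both NemoDK_Ercc1 values lay below both Ercc1 values, with a difference of -0.20 ± 0.14 (adjusted p = 0.817). Ikbkg likewise shares exonic bases with G6pdx. Counts per gene cannot show whether the Nemo allele is present, so they leave the label unchecked.

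The 4 mutant libraries lay close to each other. By the share of genes over 2-fold, the distance between the 2 Ercc1 mice exceeded 1 of the 4 distances between the groups and was near a second. By the median absolute log2 difference (0.213) it exceeded those of Ercc1 library 2 from NemoDK_Ercc1 library 1 (0.143) and library 2 (0.166). Over 13035 genes with a mean of at least 1 CPM, 2.09% differed more than 2-fold between the 2 Ercc1 libraries and 0.583% between the 2 NemoDK_Ercc1 libraries. Between the groups, Ercc1 library 2 differed from NemoDK_Ercc1 library 1 at 0.905% of genes and from library 2 at 2.20%. Ercc1 library 1, from the oldest mouse, differed from them at 2.97% and 3.87%. The library of the 13.7-week Ercc1 mouse was therefore nearer to NemoDK_Ercc1 library 1 than to the other library of its own genotype. For scale, pairs of WT libraries differed at 1.55 to 5.22% of genes and WT-mutant pairs at 8.55 to 14.0%.

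**Figure D1:**
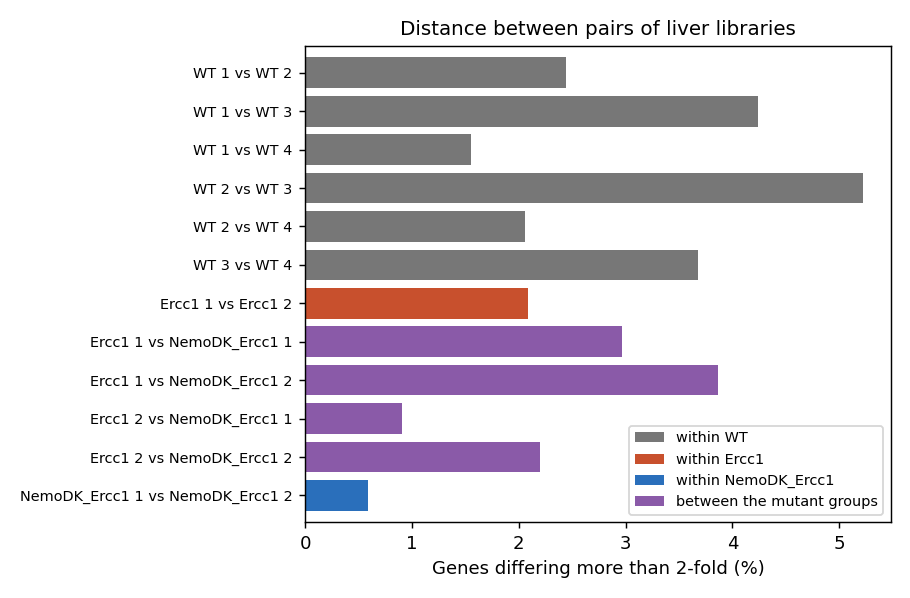
Share of 13035 genes (in %) that differed more than 2-fold in log2(CPM + 1) between each pair of libraries of the same group, and between the mutant groups; each bar is 1 pair. The shortest bars are NemoDK_Ercc1 1 against 2 (0.583%) and Ercc1 2 against NemoDK_Ercc1 1 (0.905%), and every pair with Ercc1 1 is above 2%.

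No gene passed the threshold in edgeR between NemoDK_Ercc1 and Ercc1 livers, while DESeq2 and an edgeR fit with no filter on low counts called some. At an adjusted p under 0.05, edgeR called 0 of 15598 genes higher (0%) and 0 lower (0%), with a smallest adjusted p of 0.539. At an unadjusted p under 0.05 it gave 513 genes higher (3.29%) and 549 lower (3.52%), together 6.81%. Limma-voom called 0 genes as well, with a smallest adjusted p of 0.437. DESeq2, which estimates the spread differently, called 33 higher (0.225%) and 38 lower (0.259%) of 14655 genes with an adjusted p. With no filter on low counts edgeR called 28 higher and 37 lower, 65 genes that all passed the filter, and 50 of them were also called by DESeq2. With the filter kept, it called 2 higher and 0 lower without NemoDK_Ercc1 library 1, and the counts were 0 and 0 without WT library 3, without WT library 1 and without Ercc1 library 1. Differences larger than 2-fold were estimated for 723 genes (4.64%), and the 95% confidence interval lay wholly within 2-fold for 9747 genes (62.5%). For those a change beyond 2-fold lies outside the interval, while for the remaining genes 2 mice a side left room for one.

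**Figure D2:**
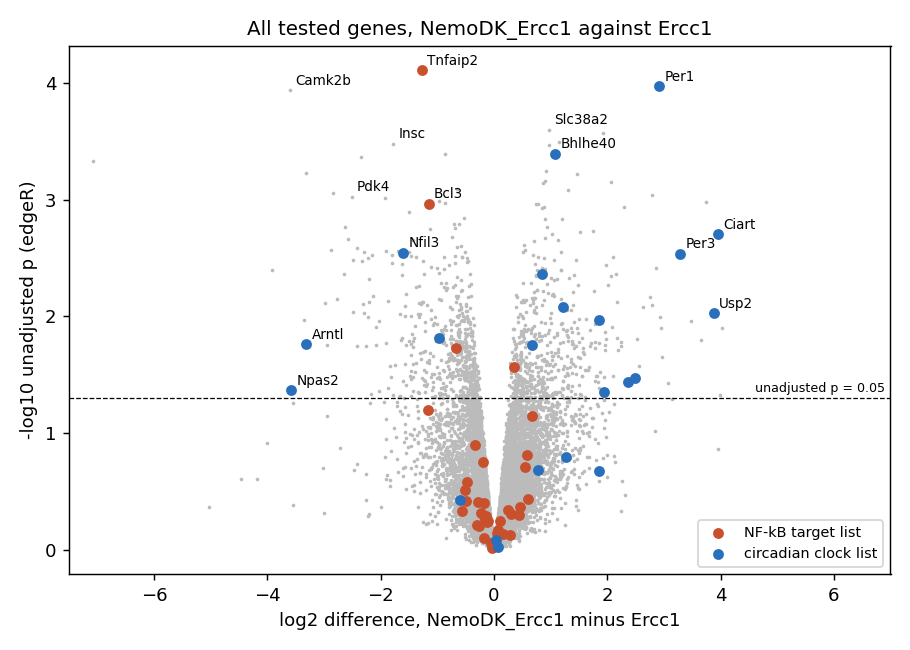
Log2 difference (NemoDK_Ercc1 minus Ercc1, x axis) against -log10 of the unadjusted edgeR p (y axis) for 15598 tested genes, with NF-kB targets in orange and clock genes in blue. Clock genes lie far out on both sides (Ciart at 3.96, Npas2 at -3.58) while NF-kB targets lie between -1.27 and 0.67. No gene passed the adjusted threshold in this fit.

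Which genes came nearest to the threshold is a description. The genes with the smallest p among those higher in NemoDK_Ercc1 included 2 clock genes. Per1, a light- and hormone-responsive clock repressor, was at 10.8 and 8.28 CPM in Ercc1 and at 53.5 and 90.3 CPM in NemoDK_Ercc1. Its difference was 2.91 ± 0.44, and the NemoDK_Ercc1 values lay inside and just above the WT range of 39.1 to 88.3 CPM. Bhlhe40, which competes with CLOCK-BMAL1 at E-boxes, was at 82.0 and 59.7 against 151 and 148 CPM, with 163 to 214 in WT (1.08 ± 0.19). Neither gene overlapped between the mutant groups, which is no separate result because they were picked by small p. Among all tested genes 23.1% lay above in both NemoDK_Ercc1 libraries. In Per1 and Bhlhe40 both Ercc1 libraries lay under every WT library. Slc38a2, a glutamine and alanine transporter, was at 48.2 and 53.2 against 83.8 and 115 CPM (0.97 ± 0.16). Fnip2, a folliculin partner in nutrient sensing, was at 16.0 and 15.8 against 28.1 and 31.9 CPM (0.92 ± 0.17), below the WT range of 45.3 to 64.5 CPM in all 4 mutant livers. These 4 genes had an adjusted p of 0.539 in edgeR, and DESeq2 called each of them, with adjusted p from 7.17e-09 (Per1) to 0.0112 (Fnip2).

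On the lower side the smallest p belonged to Tnfaip2, a TNF-induced NF-kB target. It was at 67.6 and 50.9 CPM in Ercc1 and at 25.2 and 23.8 CPM in NemoDK_Ercc1 (-1.27 ± 0.18), with 29.6 to 38.6 CPM in WT. The Ercc1 values lay above the WT range and the NemoDK_Ercc1 values below it. Camk2b, a calcium-dependent kinase subunit, was at 8.69 and 3.50 CPM in Ercc1 and at 0.592 and 0.381 CPM in NemoDK_Ercc1 (-3.61 ± 0.55), where WT held 6.49 to 12.9 CPM. Here the NemoDK_Ercc1 libraries, not the Ercc1 libraries, stood farthest from WT. Insc, an adaptor of spindle orientation, was at 24.4 and 15.3 against 5.92 and 5.68 CPM (-1.77 ± 0.31). Nelfa, a subunit of the negative elongation factor, was at 16.5 and 13.4 against 8.28 and 8.05 CPM (-0.87 ± 0.16), and its exons overlap Nsd2 on the other strand. Med24, a Mediator subunit, was at 29.5 and 24.7 against 16.7 and 17.9 CPM (-0.65 ± 0.13). These 5 also had an edgeR adjusted p of 0.539 and were called by DESeq2, with adjusted p from 3.24e-08 (Camk2b) to 0.0360 (Med24).

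Circadian clock genes made the widest pattern. Of 22 tested, 0 passed in edgeR, 12 were higher and 4 lower at an unadjusted p under 0.05, and the median difference was 1.15, against 0.02 over all tested genes. In 15 of 22 (68.2%) both NemoDK_Ercc1 libraries lay above both Ercc1 libraries and in 4 (18.2%) below. Over all genes these shares were 23.1% and 19.7%. DESeq2 called 5 members: Per1, Bhlhe40, Ciart and Tef higher and Nfil3 lower. With no filter edgeR called these 5 and also Per3, Usp2 and Arntl. The median was 0.93 without Ercc1 library 1 and 0.93 to 1.47 over all libraries left out in turn.

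Clock repressors stood higher in NemoDK_Ercc1 in most cases, with no call in edgeR. Per2 was at 16.0 and 7.06 CPM in Ercc1 and 28.3 and 60.6 CPM in NemoDK_Ercc1 (1.95 ± 0.83), and WT ranged from 17.6 to 124 CPM. Per3, whose D-boxes are printed above, was at 4.87 and 11.8 against 61.3 and 102 CPM (3.29 ± 0.80), with 19.2 to 133 CPM in WT. Cry2 was at 42.8 and 53.2 against 73.2 and 79.2 CPM (0.67 ± 0.23). Cry1 did otherwise: it was at 14.4 and 5.19 against 4.21 and 8.73 CPM, and the groups overlapped. Ciart, with its 3 E-boxes, was at 1.43 and 1.39 CPM in Ercc1 and 19 and 25 CPM in NemoDK_Ercc1 (3.96 ± 0.91), and WT ranged from 2.42 to 29.4 CPM. Bhlhe41 was at 0.843 and 2.72 against 10.1 and 2.84 CPM, with so wide a spread that its standard error was 1.38, and its difference was 1.86, or -2.09 with age as a covariate.

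Genes of the clock output, the PAR-bZIP factors that bind D-boxes, went the same way. Dbp was at 5.79 and 68.3 CPM in Ercc1 and 210 and 207 CPM in NemoDK_Ercc1 (2.49 ± 0.99). As a ratio, the 2 Ercc1 mice thus lay farther apart from each other than Ercc1 library 2 lay from NemoDK_Ercc1. Tef was at 34.8 and 91.7 against 194 and 265 CPM (1.86 ± 0.58), and Hlf at 20.7 and 27.7 against 40.6 and 46.9 CPM (0.86 ± 0.22). The deubiquitinase gene Usp2 was at 4.07 and 2.95 against 31.9 and 71.4 CPM (3.88 ± 1.17), and the nocturnin gene Noct at 14.7 and 4.31 against 21.2 and 76.4 CPM (2.36 ± 0.95). Wee1, a mitotic kinase under clock control, was at 7.51 and 9.67 against 16.4 and 25.2 CPM (1.27 ± 0.83). None of these groups overlapped.

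The activator arm lay on the opposite side. Arntl was at 29.2 and 19.1 CPM in Ercc1 and 3.78 and 0.974 CPM in NemoDK_Ercc1 (-3.31 ± 1.13). Npas2, a CLOCK paralog, was at 7.95 and 4.17 against 0.723 and 0.254 CPM (-3.58 ± 1.51). Clock was at 26.7 and 26.3 against 17.0 and 10.1 CPM (-0.96 ± 0.32), and Nfil3, a repressor that competes with DBP, at 25.9 and 19.8 against 6.64 and 8.39 CPM (-1.61 ± 0.39). All 4 were lower in each NemoDK_Ercc1 library than in each Ercc1 library. Their repressor Nr1d1 did not separate the groups, at 37.2 and 163 CPM in Ercc1 and 155 and 55.5 CPM in NemoDK_Ercc1, and its exons overlap Thra on the other strand. Nr1d2 was at 24.0 and 54.4 against 91.2 and 91.7 CPM (1.22 ± 0.36). The ROR activator gene Rora was at 37.4 and 34.5 against 35.6 and 38.5 CPM.

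Several of these genes also varied among WT mice of 1 genotype. WT library 1 held 20 CPM of Arntl and 6.34 CPM of Npas2, where the other WT libraries held 2.17 to 2.90 and 0.0504 to 0.733 CPM. It also had the lowest WT values of Ciart (2.42 CPM), Usp2 (3.25 CPM), Per3 (19.2 CPM), Dbp (53 CPM) and Wee1 (1.21 CPM). In all of these but Wee1, WT 1 lay toward the Ercc1 libraries and WT 2 to 4 lay toward the NemoDK_Ercc1 libraries. For Wee1, WT 3 (12.3 CPM) and WT 4 (10.7 CPM) lay nearer the Ercc1 values. WT 1 was also the lowest WT library in Per2 (17.6 CPM), Tef (110 CPM), Hlf (51.6 CPM), Cry2 (48.2 CPM) and Nr1d2 (74.3 CPM). In Bhlhe41 it was lowest by little (1.02 CPM), and in Clock (33.3 CPM) and Nfil3 (32.1 CPM) it was highest. Other clock genes did not follow this order: WT 1 lay inside the range of the other WT libraries in Per1 (43.6 CPM) and Bhlhe40 (174 CPM). It also lay inside that range in Cry1, Nr1d1, Noct and Rora. The time and feeding state at which each mouse was sampled were not given, and their part in the result was not tested.

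**Figure D3:**
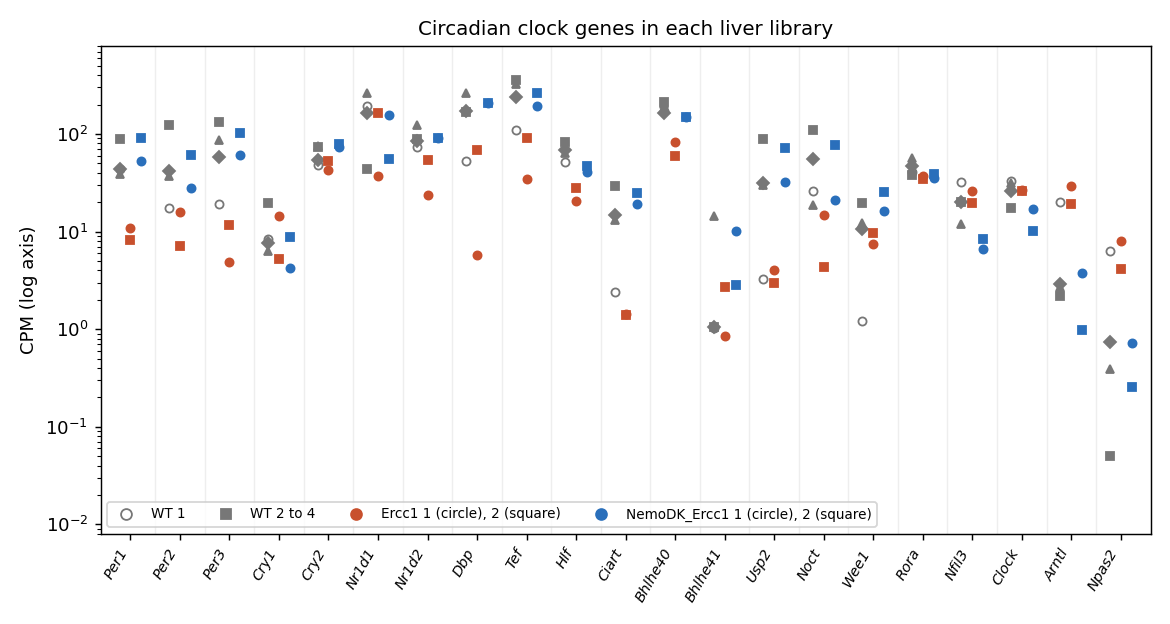
CPM (log axis) of 21 clock genes in each of the 8 libraries; grey points are WT (open circle WT 1), orange Ercc1 and blue NemoDK_Ercc1. Arntl and Npas2 are at 4.17 CPM or more in both Ercc1 libraries and WT 1 and at 3.78 CPM or less in both NemoDK_Ercc1 libraries and WT 2 to 4, and Ciart, Usp2 and Per3 show the reverse order.

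Target genes of NF-kB, the factor that NEMO helps to activate, gave no call in edgeR and no common direction. Of 50 listed, 1 had no counts, 10 were below the filter and 39 were tested. 0 passed in edgeR, with 1 higher and 3 lower at an unadjusted p under 0.05, and DESeq2 called 2 lower, Tnfaip2 and Bcl3. The median difference was -0.13, and it was 0.35 with age as a covariate. Both NemoDK_Ercc1 libraries lay above both Ercc1 libraries in 5 genes (12.8%), below in 9 (23.1%), and overlapped in 25. Over all tested genes the shares were 23.1% above and 19.7% below. For 18 of the 39 (46.2%) the 95% interval lay within 2-fold.

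Besides Tnfaip2, the members lower at an unadjusted p under 0.05 were the regulators Bcl3 and Tnfaip3. Bcl3, an atypical IkB protein, was at 50.4 and 28.3 CPM in Ercc1 and 19.3 and 16.1 CPM in NemoDK_Ercc1 (-1.15 ± 0.24), with 23.9 to 27.3 CPM in WT. Without Ercc1 library 1 its difference was -0.68. Tnfaip3, which encodes the inhibitor A20, was at 7.18 and 6.08 against 4.47 and 3.81 CPM (-0.68 ± 0.23), above the WT range of 2.62 to 3.87 CPM in 3 of the 4 mutant libraries. Nfkbia went the other way, at 30.5 and 34.3 against 39.7 and 42.6 CPM (0.35 ± 0.13), near the WT range of 40.3 to 48.1 CPM. Both carry the NF-kB motif in the stretches printed above, and they differed in direction.

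Most inflammatory effectors given here overlapped between the groups, and Ccl2 and Selp did not. The adhesion molecule Icam1 was at 25.1 and 23.4 CPM in Ercc1 and 24.8 and 19.2 CPM in NemoDK_Ercc1, with 9.39 to 13.5 CPM in WT. Cxcl10, a lymphocyte chemokine, was at 9.09 and 5.46 against 6.44 and 5.63 CPM, with 0.775 to 3.12 CPM in WT. The receptor Tlr2 was at 5.97 and 7.64 against 5.16 and 6.95 CPM, and Cd83, a marker of activated dendritic cells, at 5.13 and 6.65 against 10.8 and 6.44 CPM. All 4 mutant libraries were above every WT library in these 4 genes, and the mutant groups overlapped in each. Ccl2, a monocyte chemokine, was at 2.38 and 2.61 against 1.48 and 0.720 CPM (-1.16 ± 0.55), and the endothelial selectin Selp at 1.32 and 1.56 against 2.17 and 2.41 CPM (0.67 ± 0.32). These 2 separated the groups, in opposite directions.

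**Figure D4:**
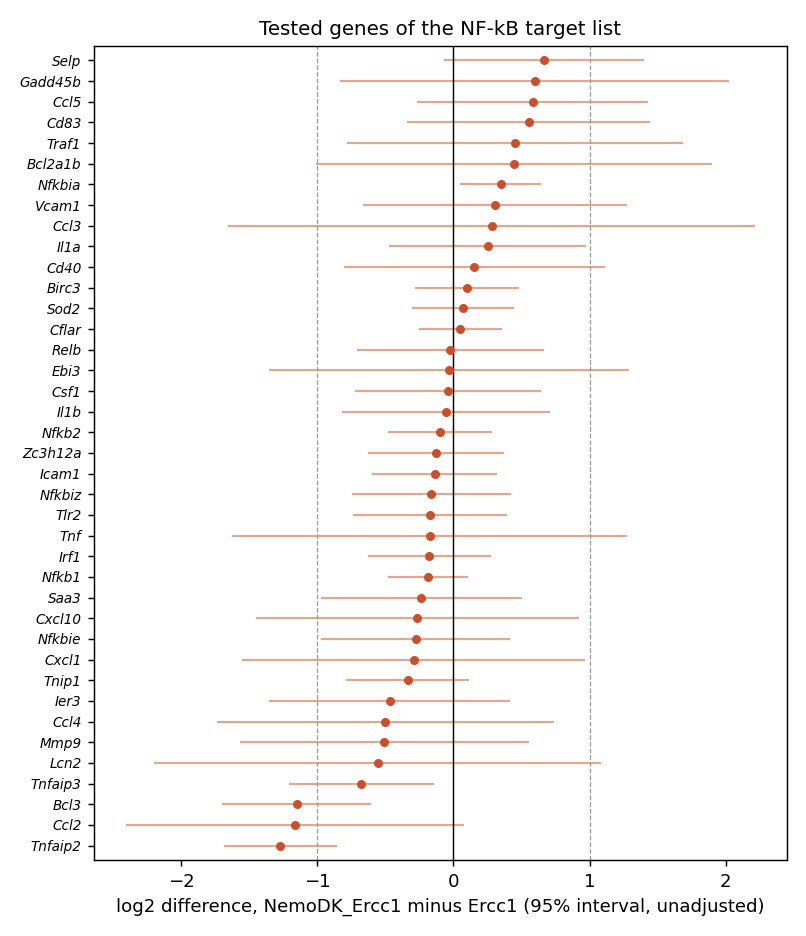
Log2 difference (NemoDK_Ercc1 minus Ercc1) of the 39 tested NF-kB target genes; points are edgeR estimates and bars 95% confidence intervals, unadjusted; dashed lines mark 2-fold. Only the intervals of Tnfaip2, Bcl3, Tnfaip3 and Nfkbia do not cross 0, and that of Nfkbia lies on the higher side.

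The pathway's own components were measured closely and differed little. Of 39, all tested, 0 passed in edgeR or DESeq2, 2 were higher and 3 lower at an unadjusted p under 0.05, the median was -0.09, and 32 (82.1%) had an interval within 2-fold. The kinase subunits Chuk (94.5 and 101 against 93.1 and 88.9 CPM) and Ikbkb (64.9 and 65.3 against 65.9 and 67.0 CPM) stood at nearly the same level in both groups. So did Rela (65.5 and 57.6 against 56.6 and 51.0 CPM) and Nfkb1 (26.5 and 30.2 against 25.5 and 24.1 CPM), although both NemoDK_Ercc1 values were the lower ones. The member with the smallest p was Traf3, which keeps the kinase NIK of the non-canonical branch low. It was at 22.1 and 16.3 against 13.3 and 13.7 CPM (-0.51 ± 0.16), and its difference was -0.27 without Ercc1 library 1. Map3k14, which encodes NIK, came after Tnfaip3, Nfkbia and the adaptor gene Tirap in order of p. It was at 4.62 and 4.65 against 8.09 and 7.71 CPM (0.77 ± 0.31).

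Senescence and p53 genes gave no call in edgeR either. The 42 tested secretory genes had 0 calls in edgeR and in DESeq2, 3 higher and 0 lower at an unadjusted p under 0.05 and a median of 0.03. The growth factor binding protein gene Igfbp3 was at 27.7 and 35.5 CPM in Ercc1 and 62.8 and 50.1 CPM in NemoDK_Ercc1 (0.83 ± 0.26), and Igfbp4 at 1065 and 1176 against 1445 and 1724 CPM. Osteopontin (Spp1) was at 31.7 and 40.9 against 53.6 and 48.3 CPM (0.49 ± 0.15), and the TNF receptor gene Tnfrsf1b at 26.4 and 33.8 against 41.9 and 53.8 CPM (0.67 ± 0.26). Cdkn1a, which encodes the cell cycle inhibitor p21, was at 104 and 66.2 against 45.4 and 40.5 CPM. Both NemoDK_Ercc1 values were below both Ercc1 values and all 4 were above the WT range of 1.01 to 9.49 CPM. Its difference of -0.99 ± 0.79 had a 95% interval from -2.79 to 0.81. Cdkn2b was at 0.550 and 0.407 against 0.197 and 0.169 CPM, a low level.

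Of 40 p53 targets 0 passed in edgeR, 2 were higher and 1 lower at an unadjusted p under 0.05, and the median was -0.0034. The stress kinase gene Plk3 was at 23.1 and 38.5 CPM in Ercc1 and 60.3 and 91.5 CPM in NemoDK_Ercc1 (1.30 ± 0.26), and DESeq2 called it (adjusted p = 0.00383). Bbc3, which encodes the apoptosis inducer PUMA, was at 21.1 and 19.8 against 13.4 and 10.5 CPM (-0.77 ± 0.26). Ddb2, a damage sensor of nucleotide excision repair, was at 7.66 and 8.49 against 10.2 and 11.0 CPM (0.39 ± 0.17), and Trp53inp2 at 204 and 198 against 144 and 147 CPM. These members do not share a direction.

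Genes of glucose output stood higher in NemoDK_Ercc1 in most members, with no call in edgeR. Of 35 tested gluconeogenesis and amino acid catabolism genes 0 passed, 5 were higher and 0 lower at an unadjusted p under 0.05, and 20 (57.1%) lay above in both libraries against 6 below. Among all tested genes 23.1% lay above and 19.7% below. The median of the list was 0.26. Pck1, the committing enzyme of gluconeogenesis, was at 474 and 1157 CPM in Ercc1 and 1600 and 3088 CPM in NemoDK_Ercc1 (1.52 ± 0.55). Ppargc1a, a coactivator of the fasting response, was at 3.74 and 5.80 against 8.97 and 13.2 CPM (1.21 ± 0.26). Slc37a4, the glucose-6-phosphate transporter, was at 105 and 101 against 155 and 195 CPM (0.76 ± 0.19), and serine dehydratase (Sds) at 60.3 and 77.5 against 106 and 193 CPM (1.11 ± 0.36). For each of these 4 every Ercc1 library lay below every WT library. DESeq2 and edgeR with no filter called Ppargc1a and Slc38a2.

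Lipid genes were mixed. Of 35 lipogenesis genes 0 passed in edgeR and 1 in DESeq2, with 2 higher and 6 lower at an unadjusted p under 0.05 and a median of -0.28. Dgat2, which makes triglyceride, was at 253 and 298 CPM in Ercc1 and 392 and 514 CPM in NemoDK_Ercc1 (0.72 ± 0.23), and the lipin gene Lpin2 at 170 and 210 against 270 and 326 CPM (0.65 ± 0.18). Pdk4, which holds back glucose oxidation in fasting, was at 58.6 and 39.9 against 9.99 and 7.2 CPM (-2.51 ± 0.51), with 2.66 to 9.30 CPM in WT. It stood against the direction of Pck1 and Ppargc1a, which the same fasting signals are known to induce. Among 39 fatty acid oxidation genes 0 passed in edgeR, DESeq2 called Pdk4 (adjusted p = 0.000397), and 1 was higher and 1 lower at an unadjusted p under 0.05.

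In bile acid synthesis, where 0 of 27 genes passed in edgeR, the rate-limiting enzyme Cyp7a1 was at 56.2 and 64.6 CPM in Ercc1 and 150 and 208 CPM in NemoDK_Ercc1 (1.57 ± 0.55), with 126 to 440 CPM in WT. Nr0b2, which encodes the repressor SHP that acts on Cyp7a1, was at 42.1 and 26.9 against 15.2 and 12.4 CPM (-1.33 ± 0.38). Hsd3b7, the next enzyme, was at 17.3 and 16.2 against 9.73 and 7.33 CPM (-0.97 ± 0.20), and DESeq2 called it (adjusted p = 0.0168). With no filter edgeR called Nr0b2 and Hsd3b7. The pericentral glutamate transporter gene Slc1a2 was at 26.4 and 43.3 against 68.6 and 84.9 CPM (1.14 ± 0.27), below the WT range of 157 to 224 CPM in all 4 mutant livers, and DESeq2 called it (adjusted p = 0.0184).

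**Figure D5:**
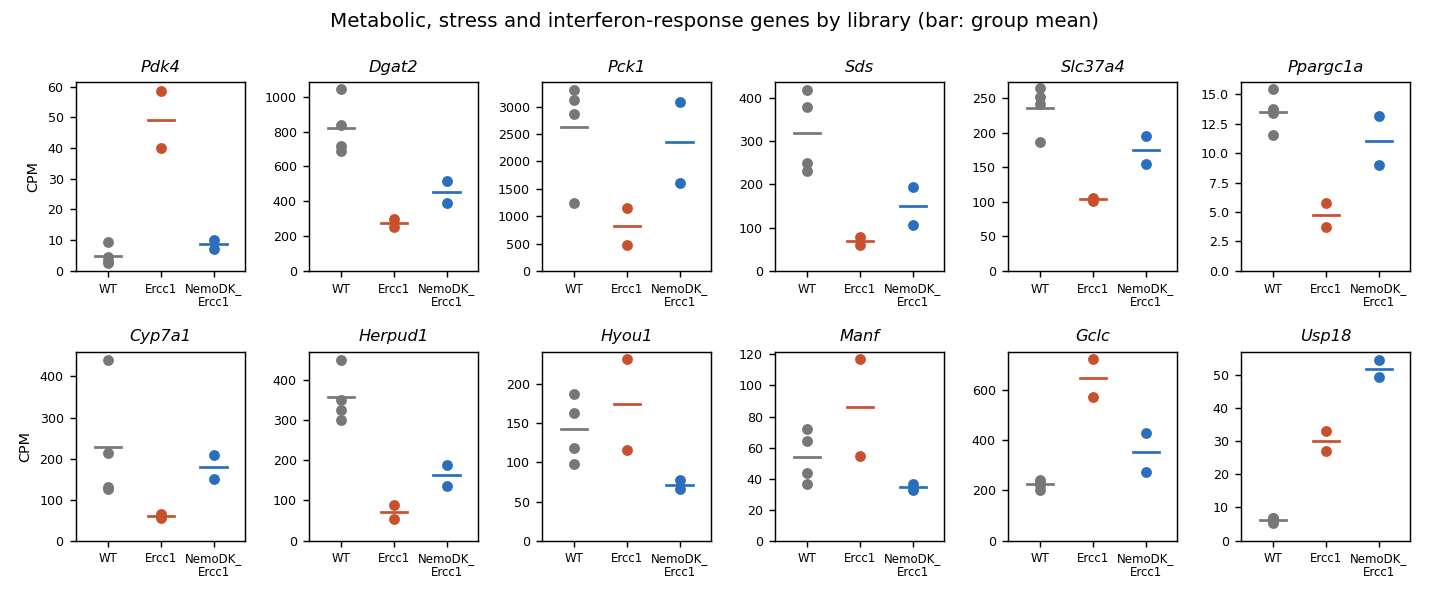
CPM of 12 metabolic, stress and interferon-response genes in each library (points) with the group mean (bars); each axis starts at 0. The 12 genes were picked by small p in this same comparison, so the lack of overlap between Ercc1 and NemoDK_Ercc1 points is no separate result. Among all 15598 tested genes both NemoDK_Ercc1 libraries lay above in 23.1% and below in 19.7%. None of the 12 genes passed in edgeR.

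Stress-response genes stood lower in NemoDK_Ercc1 in most members, with no call in edgeR. Of 39 tested genes of the unfolded-protein and integrated stress response 0 passed in edgeR, 2 were higher and 9 lower at an unadjusted p under 0.05, and 22 (56.4%) lay below in both libraries against 4 above. Among all tested genes 19.7% lay below and 23.1% above. The median of the list was -0.30, and -0.17 without Ercc1 library 1. The chaperone Hyou1 was at 233 and 116 CPM in Ercc1 and 65.8 and 77.6 CPM in NemoDK_Ercc1 (-1.28 ± 0.37), and the secreted factor Manf at 117 and 54.7 against 32.6 and 36.6 CPM (-1.31 ± 0.40). In both genes the oldest Ercc1 mouse held the high value, and the other lay within 98.0 to 188 CPM (Hyou1) and 36.6 to 71.6 CPM (Manf), the WT ranges. Without that library the differences were -0.70 (Hyou1) and -0.66 (Manf). Mthfd2, an ATF4-induced folate enzyme, was at 3.92 and 2.1 against 1.51 and 1.06 CPM (-1.22 ± 0.38). Herpud1, which serves degradation at the endoplasmic reticulum, was among the 4 members above, at 53.5 and 89.2 against 136 and 189 CPM (1.19 ± 0.29), below the WT range of 301 to 449 CPM in all 4 mutant livers. DESeq2 called it (adjusted p = 0.0193), and edgeR with no filter called Herpud1 higher and Hyou1 and Manf lower. The small heat-shock protein gene Hspb1 was at 19.9 and 22.6 against 14.1 and 9.02 CPM (-0.88 ± 0.28).

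Antioxidant genes under NRF2 had 0 edgeR calls among 37, with 1 higher and 5 lower at an unadjusted p under 0.05 and a median of -0.11. Of the 37, 16 (43.2%) lay below in both NemoDK_Ercc1 libraries and 4 (10.8%) above. Among all tested genes 19.7% lay below and 23.1% above. Gclc, the rate-limiting enzyme of glutathione synthesis, was at 572 and 724 CPM in Ercc1 and 430 and 274 CPM in NemoDK_Ercc1 (-0.88 ± 0.23), above the WT range of 203 to 240 CPM in all 4, and DESeq2 called it (adjusted p = 0.0347). Txnrd1 was at 243 and 189 against 156 and 159 CPM (-0.45 ± 0.15), and Osgin1 at 413 and 457 against 244 and 166 CPM (-1.08 ± 0.39). The glucuronosyltransferase gene Ugt1a6a, which shares exons with its neighbours, was at 7.18 and 8.18 against 10.9 and 10.5 CPM (0.48 ± 0.17).

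Interferon-response genes had 0 edgeR calls among 49, with 4 higher and 1 lower at an unadjusted p under 0.05 and a median of 0.14. Usp18, which restrains interferon signaling, was at 27.1 and 33.1 CPM in Ercc1 and 54.3 and 49.1 CPM in NemoDK_Ercc1 (0.78 ± 0.16), with 5.23 to 6.95 CPM in WT, and DESeq2 called it (adjusted p = 0.0321). Oas1g was at 3.19 and 5.13 against 7.89 and 7.16 CPM (0.85 ± 0.34), Ifit3b at 5.86 and 4.82 against 10.3 and 9.19 CPM (0.86 ± 0.34), and Gbp7 at 14.0 and 11.6 against 19.2 and 19.3 CPM (0.58 ± 0.23). These 4 genes were picked by small p in this same comparison, so their lack of overlap between the mutant groups is no separate result. Of the 49 genes, 18 (36.7%) lay above in both NemoDK_Ercc1 libraries and 7 (14.3%) below. Among all tested genes 23.1% lay above and 19.7% below.

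Proliferation genes stood lower in many members, with no call in edgeR or DESeq2. Of 49 cell cycle genes 0 passed, 0 were higher and 4 lower at an unadjusted p under 0.05, and 22 (44.9%) lay below in both NemoDK_Ercc1 libraries against 1 above. Among all tested genes 19.7% lay below and 23.1% above. The median of the list was -0.29, and it was 0.48 with age as a covariate. The spindle motor gene Kif11 was at 3.15 and 3.50 CPM in Ercc1 and 1.74 and 1.53 CPM in NemoDK_Ercc1 (-1.02 ± 0.34), and the mitotic kinase gene Plk1 at 3.56 and 3.12 against 1.81 and 1.10 CPM (-1.19 ± 0.49). Rrm2, a ribonucleotide reductase subunit, was at 9.42 and 5.46 against 4.24 and 4.36 CPM (-0.79 ± 0.31), and its difference was -0.35 without Ercc1 library 1. E2f8, a repressor in polyploid hepatocytes, was at 5.61 and 7.03 against 3.29 and 2.58 CPM (-1.10 ± 0.48).

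Major urinary proteins, which the liver secretes under growth hormone and androgen control, had the lowest median of the lists. Of 21 tested members 0 passed in edgeR, 0 were higher and 6 lower at an unadjusted p under 0.05, and 14 (66.7%) lay below in both NemoDK_Ercc1 libraries. Among all tested genes 19.7% lay below. The median of the list was -1.83, and -1.32 to -2.00 with libraries left out in turn. Mup17 was at 34.4 and 64.6 CPM in Ercc1 and 12.9 and 4.66 CPM in NemoDK_Ercc1 (-2.49 ± 0.62), and Mup19 at 7.07 and 11.4 against 2.1 and 3.6 CPM (-1.70 ± 0.41). DESeq2 called Mup19 lower (adjusted p = 0.00710), and edgeR with no filter called it, Mup17 and Mup9 lower. The family summed to 872 and 1665 CPM in Ercc1 and 994 and 492 CPM in NemoDK_Ercc1, so the summed level overlapped. WT summed to 5374 to 31898 CPM, with the highest value in WT library 3. These paralogs are nearly identical, and how shared reads were counted is not given in the sources used here.

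No marker of other liver cells passed in edgeR or DESeq2, and in bulk RNA fewer cells of a type and less RNA per cell cannot be told apart. Of 15 Kupffer cell markers, the resident macrophages of the liver, the sum was 803 and 1172 CPM in Ercc1 and 1135 and 1145 CPM in NemoDK_Ercc1. Monocyte and recruited macrophage markers summed to 220 and 299 against 262 and 284 CPM, and their members diverged. The receptor Cx3cr1 was at 3.48 and 3.43 against 1.51 and 0.890 CPM (-1.51 ± 0.37) and Chil3 at 2.42 and 0.679 against 0.230 and 0.212 CPM (-2.77 ± 0.79), while Ms4a7 was at 0.953 and 0.713 against 1.64 and 2.16 CPM (1.18 ± 0.35). With age as a covariate the difference of Chil3 was 0.98. Of 14 neutrophil markers 9 were below the filter. The calprotectin genes S100a8 (2.27 and 1.43 against 0.690 and 0.551 CPM) and S100a9 (2.57 and 2.24 against 1.38 and 1.06 CPM) lay lower, and the whole list summed to 173 and 83.8 against 67.6 and 108 CPM. In each library but WT 3 (2.93 of 6.42 CPM) most of that sum was Lcn2, which is also on the NF-kB target list. The sum thus mainly follows that gene.

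T and NK cell markers lay on the other side, and B and plasma cell markers mostly overlapped. Of 20 tested T and NK cell markers 10 (50%) were above in both NemoDK_Ercc1 libraries and 0 below, with a median of 0.52 (0.26 without Ercc1 library 1), no call in edgeR or DESeq2 and no member at an unadjusted p under 0.05. Among all tested genes 23.1% were above and 19.7% below. The T and NK cell markers summed to 38.4 and 38.8 CPM in Ercc1 and 45.3 and 49.5 CPM in NemoDK_Ercc1, with 22.1 to 40.9 CPM in WT. The migration receptor genes Ccr7 and Cxcr4 are not on this list. They were picked by small p from the chemokine and chemokine receptor list, whose median was 0.04. Ccr7 was at 0.696 and 1.26 against 2.53 and 2.58 CPM (1.38 ± 0.46) and Cxcr4 at 0.586 and 1.53 against 2.24 and 2.41 CPM (1.13 ± 0.43). With age as a covariate the difference was -0.28 for Ccr7 and 0.15 for Cxcr4. Without Ercc1 library 1 it was 1.02 for Ccr7 and 0.60 for Cxcr4. Of 21 tested B and plasma cell markers 18 overlapped and 3 were above in both NemoDK_Ercc1 libraries. Their sum was 748 and 547 CPM in Ercc1 and 547 and 551 CPM in NemoDK_Ercc1. Their median of 0.27 was -0.14 without Ercc1 library 1 and -0.44 with age as a covariate. The part of these cells in the NF-kB and interferon values was not tested.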

How the data were processed

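Stranded total-RNA libraries of 8 livers were sequenced, per the labels' protocols. The values are raw counts per gene as deposited by the authors, made with HISAT2 2.1.0, FastQC and featureCounts on GRCm38 (mm10) according to the submitters' processing notes. The annotation release, the strand setting and the treatment of reads with several alignments are not given in the sources used here, so overlapping genes and paralogs are less certain. Of the 95 genes given with values, 7 share exonic bases with a gene of their own strand and 30 with one of the opposite strand (GENCODE M21, which held 55227 of the IDs).

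The fit used edgeR 4.0.16 (R 4.3.3, limma 3.58.1): filterByExpr, TMM factors, and a quasi-likelihood model with 1 mean for each of 3 groups over all 8 libraries (residual degrees of freedom 5, prior 3.67, common BCV 0.227). Benjamini-Hochberg adjustment ran over 15598 genes, with calls at an adjusted p under 0.05. A standard error is the size of the log2 difference over the square root of F. DESeq2 1.42.0 and limma-voom were alternatives. The exact permutation test of 2 against 2 cannot give a p under 0.333 and was not used. Each library is a separate mouse. The p-values set a difference against the spread between mice within groups, pooled over all 3 groups, WT included, and moderated by the prior. The scripts were tested on simulated data. Figures used Python 3.11.15 and matplotlib 3.10.9.

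The members and the 47 gene lists were chosen with earlier results of these data known. Named are Ercc1, Ikbkg, the 5 smallest p in each direction (mean log2 CPM of at least 1, no predicted gene models), up to 4 genes of a list by p, and NF-kB genes. Of the clock list, 17 genes beyond this rule were added after their values were seen. Some genes of the rule and lists are not reported here.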

Additional observations from a re-analysis of the deposited data

Results flagged for a closer look

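Among the genes given with values, 8 had 1 WT library far from the other WT libraries by Dixon's test for 4 values. Chance alone flags such a library in about 5% of genes, and no group of 2 could be tested. WT library 1 was high in Arntl (20.003 CPM against 2.17 to 2.90 in the other WT libraries), Npas2 (6.34 against 0.0504 to 0.733 CPM), Cdkn1a (9.49 against 1.01 to 1.97 CPM) and Tnfaip2 (38.6 against 29.6 to 30.4 CPM). WT library 2 was high in Per1 (88.3 against 39.1 to 44.3 CPM) and Cry1 (19.8 against 6.33 to 8.48 CPM). WT library 3 was high in Bhlhe41 (14.5 against 1.02 to 1.06 CPM) and low in Cd83 (0.655 against 1.62 to 1.66 CPM). Of the 8 genes, 5 are clock genes. Many of the 95 genes given with values are clock genes too, 17 of them added after their values were seen, so this count is no result about the clock.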

How the results depend on the processing

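With 2 mice a side, the median 95% interval of a tested gene reached 0.54 on either side of its log2 difference. Counts of genes higher and lower at an adjusted p under 0.05 were 0 and 0 in edgeR, and they stayed at 0 and 0 with RLE, upper-quartile or no scaling factors, a filter at 1 CPM in 2 libraries, robust empirical Bayes, age as a covariate, limma-voom, and thresholds of 0.01 and 0.1. They were 28 and 37 with no filter on low counts, 33 and 38 in DESeq2, and 1 (Ciart) and 0 with only the 4 libraries compared. DESeq2 and the fit with no filter shared 50 genes of 71 and 65. With libraries left out in turn they ranged from 0 to 2 higher, the 2 without NemoDK_Ercc1 library 1, and were 0 lower each time. The cause was not tested. A library left alone in its arm is assumed to vary like the other groups. Of the genes given with values, 25 passed with no filter and 22 in DESeq2.

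Directions turned in some genes, none of them called. With age as a covariate the log2 difference was -0.33 for Ercc1, 1.81 for Cry1, -3.19 for Nr1d1, -2.09 for Bhlhe41, -0.099 for Rora, 0.36 for Icam1, 2.14 for Cxcl10, 0.98 for Chil3, -0.28 for Ccr7 and 0.030 for Hnf4a. Over libraries left out in turn it ranged from -1.22 to 0.31 for Cry1 (0.31 without Ercc1 library 1), from -0.85 to 1.501 for Nr1d1 (-0.63 without Ercc1 library 1, -0.85 without NemoDK_Ercc1 library 1), and from -0.016 to 0.10 for Rora (-0.015 without Ercc1 library 2, -0.016 without NemoDK_Ercc1 library 2). It ranged from -0.34 to 0.032 for Icam1 (0.032 without NemoDK_Ercc1 library 2), from -0.40 to 0.029 for Tlr2 (0.015 without Ercc1 library 2, 0.029 without NemoDK_Ercc1 library 1) and from -0.59 to 0.14 for Cxcl10 (0.14 without Ercc1 library 1). No paired analysis was possible because the labels give the mice no shared replicate numbers.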
